A study of Mus musculus with 6 samples.

Results

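The 18 lineage barcodes described here mark the smaller clones of PB3 cells that lay in deposited cluster 9 under paclitaxel. A barcode was taken where 10 or more cells of the paclitaxel conditions carried it and over 50% of those cells lay in cluster 9, and the 2 most frequent such barcodes, bc14-4-bc30-67693 and bc14-18-bc30-67263 (the leading 2), were left out. That gave 18 of the 697 barcodes called in the series, 18 of the 162 called under paclitaxel and 18 of the 62 with 10 or more paclitaxel cells. The 18 held 810 of the 4647 paclitaxel cells with a called barcode, the leading 2 held 691 and the 42 other barcodes with 10 or more cells held 2797. The barcodes were chosen by their paclitaxel cell totals and cluster 9 shares, so both are given as a description.

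PB3 is a mouse mammary tumour cell line, and all groups carried the barcode library. Paclitaxel was given for 1, 2 or 3 rounds (PAC1, PAC2 and PAC3) of 72 h, at 100 nM in the first round and 250 nM in later ones, with 48 h of recovery between rounds. The labels name recovery after the last round for PAC1 and PAC3, without its length, and none for PAC2, so the round and the recovery cannot be told apart. Eribulin was given at 500 nM for 72 h with 48 h of recovery, for 1, 2 or 3 rounds (ERI1, ERI2 and ERI3) or 4 rounds (ERI4), and untreated cells are called UNT. PAC1 to PAC3 were captured as 1 hashtag-multiplexed library and ERI1 to ERI3 as another in run 2. UNT and ERI4 have 1 cell library each from run 1 and 1 nuclei library each from run 3. Every condition stands once. Intervals in parentheses are exact Clopper-Pearson 95% intervals and cover counting error only, and no p-value is given. No gene matrix was used, so cluster 9 is called by its number.

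A lentiviral lineage barcode is a synthetic sequence that inserts into the genome of a cell and is copied to its daughters, so cells with the same barcode are taken as 1 clone. Transcribed barcodes are read together with the transcriptome, which gives clone and state for the same cell. Paclitaxel stabilises microtubules and eribulin blocks their growth, and both stop cells in mitosis. A clone can therefore be followed through drug rounds by its share of the barcoded cells.

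Each barcode is a bc14 part of 14 bases, a fixed spacer of 4 bases and a bc30 part of 30 bases, 48 bases in all. The 8 with the most paclitaxel cells are printed 5′ to 3′ as the deposited barcode reference writes them, because they carry most of the values below. Capitals mark the bc14 and bc30 parts and lower case marks the spacer.
bc14-33-bc30-33994: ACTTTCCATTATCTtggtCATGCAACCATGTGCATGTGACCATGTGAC
bc14-65-bc30-62538: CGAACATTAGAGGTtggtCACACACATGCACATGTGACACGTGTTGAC
bc14-13-bc30-29729: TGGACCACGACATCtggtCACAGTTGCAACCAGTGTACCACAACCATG
bc14-29-bc30-33048: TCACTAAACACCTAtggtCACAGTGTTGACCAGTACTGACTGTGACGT
bc14-58-bc30-9763: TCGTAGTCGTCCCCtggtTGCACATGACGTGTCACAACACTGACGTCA
bc14-86-bc30-69871: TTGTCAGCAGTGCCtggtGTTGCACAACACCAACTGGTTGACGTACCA
bc14-12-bc30-55481: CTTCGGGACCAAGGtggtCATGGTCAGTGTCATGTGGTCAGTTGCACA
bc14-35-bc30-28143: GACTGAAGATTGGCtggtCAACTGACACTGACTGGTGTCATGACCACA

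The 18 barcodes differed from each other at many bases. The 153 pairs among the 18 differed at 22 to 40 of 48 bases, with a median of 33. The nearest other called barcode of the series was at least 10 mismatches away from each of the 18. Their GC content ran from 43.75% to 56.25% with a median of 50%, and that of the 42 other barcodes from 43.75% to 58.3%, also with a median of 50%. The pairs that share a bc14 part were bc14-29-bc30-33048 with bc14-29-bc30-25843 and bc14-95-bc30-5507 with bc14-95-bc30-78063. Their bc30 parts differed at 22 and 26 of the 30 bases, marked in capitals here.
bc14-29-bc30-33048: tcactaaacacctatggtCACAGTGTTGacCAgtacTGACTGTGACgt
bc14-29-bc30-25843: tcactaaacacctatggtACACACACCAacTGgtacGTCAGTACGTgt
bc14-95-bc30-5507: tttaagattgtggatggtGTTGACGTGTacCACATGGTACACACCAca
bc14-95-bc30-78063: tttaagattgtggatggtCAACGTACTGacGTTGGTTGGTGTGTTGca

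The cluster 9 share split the 62 barcodes into groups far apart. The lowest among the 18 was 80.5% (bc14-29-bc30-33048, 62 of 77 cells), followed by bc14-71-bc30-60126 with 22 of 26 cells and bc14-67-bc30-7300 with 11 of 13, both 84.6%. The highest among the 42 others was 18.75%, in bc14-10-bc30-85109 and in bc14-55-bc30-93293, with 3 of 16 cells each, followed by 9.09% in bc14-71-bc30-66188, with 2 of 22 cells. No barcode with 10 or more cells lay between 18.75% and 80.5%, and 22 of the 42 had no cell in cluster 9. At the limit of cell number, bc14-29-bc30-25843, bc14-39-bc30-78101 and bc14-87-bc30-20460 passed with 11 cells each, all in cluster 9. Just outside, bc14-17-bc30-35010 and bc14-22-bc30-88323 had 9 of 9 cells in cluster 9 and bc14-21-bc30-32283 had 7 of 8. In all, 12 barcodes with under 10 cells lay over 50% in cluster 9, with 62 cells together.

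The 18 clones together were most frequent in PAC2. They made up 277 of 1792 barcoded cells in PAC1, which is 15.5% (13.8 to 17.2). In PAC2 they made up 157 of 569, which is 27.6% (24.0 to 31.5). In PAC3 they made up 376 of 2286, which is 16.4% (15.0 to 18.0). The PAC2 interval stood above the other two, and those of PAC1 and PAC3 overlapped. A called barcode was found in 1792 of 2928 PAC1 cells, 569 of 848 PAC2 cells and 2286 of 2792 PAC3 cells, and over all cells the shares were 9.46% (8.42 to 10.6), 18.5% (15.95 to 21.3) and 13.5% (12.2 to 14.8). PAC2 was again the highest, and here the PAC3 interval stood above that of PAC1. The leading 2 held 6.86% (5.74 to 8.13), 13.7% (11.0 to 16.8) and 21.4% (19.8 to 23.2), each round above the one before. Their courses were opposite after PAC2: bc14-4-bc30-67693 stood at 2.90%, 7.21% and 21.3%, and bc14-18-bc30-67263 at 3.96%, 6.50% and 0.131%. Among cluster 9 cells of any barcode call, the 18 made up 38.5% (34.8 to 42.3) of 662 in PAC1, 42.6% (37.2 to 48.0) of 336 in PAC2 and 33.3% (30.5 to 36.2) of 1070 in PAC3, while the leading 2 made up 17.4%, 20.5% and 45.1%.

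The mix within the 18 differed between rounds. PAC1 held cells of all 18, PAC2 of 17 and PAC3 of 16. The 3 most frequent held 43.0% of the member cells in PAC1, 38.2% in PAC2 and 50.5% in PAC3. They were led by bc14-65-bc30-62538 in PAC1 (55 of 277 cells), by bc14-29-bc30-33048 and bc14-33-bc30-33994 in PAC2 (21 of 157 each) and by bc14-13-bc30-29729 in PAC3 (88 of 376). Without bc14-13-bc30-29729 the combined share was 15.1%, 26.9% and 12.6% (11.3 to 14.03) in the 3 rounds.

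A single clone was called higher or lower between rounds where its intervals did not overlap, over the 62 barcodes with 10 or more cells. PAC2 stood above PAC1 in 3 of the 18 and in 1 of the 42 others (8.06% of the 62), and below it in 0 of the 18 and in 4 of the 42 (6.45%). PAC3 stood above PAC2 in 1 of the 18 and in 1 of the 42 (4.84%), and below it in 6 of the 18 and in 5 of the 42 (19.4%). Between the first and the last round, PAC3 stood above PAC1 in 3 of the 18 and in 1 of the 42 (8.06%), and below it in 3 of the 18 and in 30 of the 42 (54.8%). By the values alone, 14 of the 18 and 6 of the 42 were higher in PAC2 than in PAC1. Clones of 1 library are not replicates, and several of the 18 had 4 or fewer PAC2 cells, so single cells can set a direction. From PAC2 to PAC3, 3 of the 18 were higher and 14 lower, against 12 and 24 of the 42. Between PAC1 and PAC3, 6 of the 18 and 3 of the 42 were higher in PAC3. These shares sum to 100% within a round, so a gain of 1 clone lowers the rest. Cluster 9 held 24.4%, 41.5% and 37.9% of barcoded cells in PAC1, PAC2 and PAC3. The 18 and the 42 were divided by their cluster 9 share in these same cells. Contrasts between the 18 and the 42 are thus not independent of the choice and are given as a description.

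The clones more frequent in PAC3 than in PAC1 were led by bc14-13-bc30-29729. It had 7 cells in PAC1, 4 in PAC2 and 88 in PAC3, which is 0.391% (0.157 to 0.803), 0.703% (0.192 to 1.79) and 3.85% (3.099 to 4.72) of barcoded cells. Its PAC3 interval stood above both earlier rounds. The clone bc14-86-bc30-69871 had 17, 4 and 48 cells, or 0.949% (0.554 to 1.51), 0.703% (0.192 to 1.79) and 2.10% (1.55 to 2.77). The clone bc14-58-bc30-9763 had 15, 14 and 45 cells, or 0.837% (0.469 to 1.38), 2.46% (1.35 to 4.09) and 1.97% (1.44 to 2.62). In both, PAC3 stood above PAC1 while the PAC2 interval overlapped that of PAC3.

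The clones that stood out in PAC2 included some with 1 cell left in PAC3. The clone bc14-71-bc30-60126 had 7 cells in PAC1, 18 in PAC2 and 1 in PAC3, or 0.391% (0.157 to 0.803), 3.16% (1.89 to 4.95) and 0.0437% (0.00111 to 0.243). With 1, 9 and 1 cells, bc14-39-bc30-78101 stood at 0.0558%, 1.58% (0.726 to 2.98) and 0.0437%. With 6, 13 and 8 cells, bc14-95-bc30-5507 stood at 0.335% (0.123 to 0.727), 2.28% (1.22 to 3.88) and 0.350% (0.151 to 0.688). In these 3 clones the PAC2 interval stood above both other rounds. In bc14-29-bc30-33048 (31, 21 and 25 cells) and in bc14-35-bc30-28143 (20, 12 and 14 cells) PAC2 stood above PAC3 only. Their shares were 1.73%, 3.69% (2.30 to 5.59) and 1.09% (0.709 to 1.61), and 1.12%, 2.11% (1.09 to 3.65) and 0.612% (0.335 to 1.03).

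Clones less frequent in PAC3 than in PAC1 included the most frequent of PAC1. The clone bc14-65-bc30-62538 had 55, 11 and 36 cells, or 3.07% (2.32 to 3.98), 1.93% (0.969 to 3.43) and 1.57% (1.10 to 2.17). The clone bc14-75-bc30-22367 had 11, 4 and 0 cells, and 0 of 2286 allows a share of up to 0.131%, against 0.614% (0.307 to 1.10) in PAC1 and 0.703% (0.192 to 1.79) in PAC2. The clone bc14-87-bc30-20460 had 11 cells in PAC1 and none later, with the same share in PAC1 and limits of 0.527% in PAC2 and 0.131% in PAC3. Its PAC1 interval overlapped that limit in PAC2 and stood above the one in PAC3.

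For the remaining 7 clones the intervals of all 3 rounds overlapped. The most frequent of all 18, bc14-33-bc30-33994, had 33, 21 and 54 cells, or 1.84% (1.27 to 2.58), 3.69% (2.30 to 5.59) and 2.36% (1.78 to 3.07). Counts were 21, 9 and 18 for bc14-12-bc30-55481 and 11, 4 and 28 for bc14-2-bc30-90226. The small clones had 9, 4 and 2 cells (bc14-73-bc30-93926), 8, 2 and 5 (bc14-95-bc30-78063), 8, 3 and 2 (bc14-67-bc30-7300) and 6, 4 and 1 (bc14-29-bc30-25843). Intervals for these counts span several-fold. Of the pairs with a common bc14 part, bc14-29-bc30-33048 and bc14-29-bc30-25843 were both highest in PAC2 and lowest in PAC3 by the values. The other pair differed in its order, with bc14-95-bc30-5507 highest in PAC2 and bc14-95-bc30-78063 highest in PAC1.

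Untreated cells held few cells of these clones. Of UNT cells, 13 of 5087 barcoded cells belonged to 7 of the 18, a share of 0.256% (0.136 to 0.437), and of UNT nuclei, 14 of 4935 belonged to 5 of the 18, a share of 0.284% (0.155 to 0.476). The clones seen were bc14-75-bc30-22367 (4 cells and 2 nuclei), bc14-71-bc30-60126 (3 cells and 8 nuclei), bc14-33-bc30-33994 (2 cells), bc14-65-bc30-62538 (1 cell and 1 nucleus), bc14-29-bc30-33048 (1 cell and 1 nucleus), bc14-58-bc30-9763 (1 cell), bc14-87-bc30-20460 (1 cell) and bc14-67-bc30-7300 (2 nuclei). Thus 7 of the 18 were called in UNT cells against 36 of the 42 others (72.6% of the 62), 5 against 38 in UNT nuclei (71.0%), and 8 against 38 in either (77.4%). Runs 1 and 3 differ from run 2 in capture as well as in drug, so these are levels and not a change. A clone with 0 UNT cells could hold up to 0.0590% of them. That limit is above the share of each clone seen there with 1 or 2 cells, so absence from UNT was not shown for the 10 clones seen in neither library.

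The few untreated cells of these clones lay mostly in cluster 9, which the choice of the clones did not use. Of the 13 UNT cells, 10 were in cluster 9 (76.9%, 46.2 to 94.96). Of 5066 cells with other barcodes, the leading 2 left out here and below, 12 were (0.237%, 0.122 to 0.413). Of the 14 UNT nuclei, 11 were in cluster 9 (78.6%, 49.2 to 95.3), against 39 of 4903 (0.795%, 0.566 to 1.09). The intervals are far apart in both libraries. Over cluster 9 cells of any call, member cells were 10 of 137 UNT cells and 11 of 170 UNT nuclei. Those called Negative were 76 and 89. The clone bc14-71-bc30-60126 contributed 3 of 3 cells and 7 of 8 nuclei in cluster 9, bc14-75-bc30-22367 3 of 4 cells and 1 of 2 nuclei, and bc14-65-bc30-62538 1 of 1 in each. Of the others, bc14-33-bc30-33994 had 1 of 2 cells there, bc14-29-bc30-33048 0 of 1 cell and 1 of 1 nucleus, bc14-67-bc30-7300 1 of 2 nuclei, and bc14-58-bc30-9763 and bc14-87-bc30-20460 1 of 1 cell each. The clone bc14-71-bc30-60126 thus gave 7 of the 11 nuclei. The leading 2 had 8 of 8 UNT cells and 16 of 18 UNT nuclei there. The authors clustered all libraries together, so cells of 1 barcode were placed with the paclitaxel cells in hand. Of the 13 UNT cells, 11 had 2 or more detected barcodes (84.6%), as had 87.4% of the 5066 others, and the 2 cells with 1 detected barcode were both in cluster 9.

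Under eribulin the barcode calls limit what can be read. All barcodes called in ERI1, ERI2 and ERI3 (132, 65 and 63 of them) are among the 185 of the barcode list deposited for run 2. Only 70.4%, 59.2% and 63.7% of the barcoded cells of PAC1, PAC2 and PAC3 carry a listed barcode. The list holds 3 of the 18 clones, bc14-33-bc30-33994, bc14-29-bc30-33048 and bc14-75-bc30-22367, against 36 of the 42 others (62.9% of the 62), and neither of the leading 2. Those 3 were the ones called in at least 1 of ERI1 to ERI3, against 34 of the 42 others (59.7%), and of the 39 listed barcodes among the 62, 37 were called there (94.9%). For the 15 unlisted clones a count of 0 in ERI1 to ERI3 sets no limit on their share, and no level in these rounds is given for them. In ERI4 cells, where 14 of the 16 called barcodes are listed, the 15 had 0 of 6725 barcoded cells, as had the leading 2. That count of 0 allows up to 0.0446%.

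The 3 listed clones were taken for their paclitaxel cells, so a higher share under paclitaxel than under eribulin is favoured by the choice and is given as a description. Together they held 8 of 1356 barcoded cells in ERI1 (0.590%, 0.255 to 1.16), 17 of 882 in ERI2 (1.93%, 1.13 to 3.07) and 10 of 2215 in ERI3 (0.451%, 0.217 to 0.829). Under paclitaxel they held 75, 46 and 79 cells, or 4.19% (3.31 to 5.22), 8.08% (5.98 to 10.6) and 3.46% (2.75 to 4.29). Over cells with a listed barcode only, the paclitaxel shares were 5.95%, 13.6% and 5.43%, further from those of eribulin. Taken singly, PAC1 stood above ERI1 in 2 of the 3 (bc14-29-bc30-33048 and bc14-33-bc30-33994) and in 5 of the 36 other listed barcodes (17.9% of the 39). PAC2 stood above ERI2 in 1 of the 3 (bc14-29-bc30-33048) and in 3 of the 36 (10.3%), and PAC3 above ERI3 in 1 of the 3 (bc14-33-bc30-33994) and in 2 of the 36 (7.69%). None of the 3 stood lower under paclitaxel at any round, against 5, 6 and 7 of the 36 (12.8%, 15.4% and 17.9% of the 39). The ERI1 and ERI2 intervals of the 3 together overlapped. Without bc14-33-bc30-33994, ERI2 had 3 of 882 cells (0.340%, 0.0702 to 0.991), below ERI1 and ERI3 by the values.

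The 3 listed clones had different courses under eribulin by the values. The clone bc14-33-bc30-33994 was called in ERI2 only, with 14 cells or 1.59% (0.870 to 2.65), all 14 in cluster 9, and had 0 cells in ERI1, ERI3 and ERI4. Those zeros allow up to 0.221% of ERI1 and 0.135% of ERI3, so its ERI2 interval stood above both limits. The clone bc14-29-bc30-33048 was present throughout, with 5, 3 and 10 cells in ERI1, ERI2 and ERI3 (0.369%, 0.340% and 0.451%, all intervals overlapping) and 16 of 6725 ERI4 cells (0.238%, 0.136 to 0.386). The clone bc14-75-bc30-22367 had 3 cells in ERI1 and none later. Of the 18, 1 was called in ERI4 cells, against 7 of the 42 others (12.9% of the 62). The same clone was the only one of the 18 called in ERI4 nuclei, against 16 of the 42 (27.4%).

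Cells of these clones under eribulin also lay mostly in cluster 9, although cluster 9 was rare there. Of the member cells, 6 of 8 were in cluster 9 in ERI1, 17 of 17 in ERI2, 6 of 10 in ERI3 and 15 of 16 among ERI4 cells. Of cells with other barcodes, 0 of 1348, 1 of 865, 2 of 2205 and 2 of 6709 were. Over UNT and the eribulin cells of runs 1 and 2 together, 54 of 64 member cells (84.4%) were in cluster 9, against 754 of 810 (93.1%) under paclitaxel. Among the few cluster 9 cells with a called barcode, member cells were 6 of 6 in ERI1 and 17 of 18 in ERI2. Member cells were 6 of 8 in ERI3 and 15 of 17 among ERI4 cells. Of the 17 in ERI2, 14 were of bc14-33-bc30-33994, and those of ERI3 and ERI4 were all of bc14-29-bc30-33048. Over cluster 9 cells of any call, member cells were 6 of 9, 17 of 22, 6 of 13 and 15 of 36. Only listed barcodes were called in ERI1 to ERI3, so unlisted clones may be missing from these counts. With bc14-29-bc30-33048 alone, 3 of 5, 3 of 3, 6 of 10 and 15 of 16 cells were in cluster 9 in the 4 conditions. In ERI4 nuclei 1 of its 6 nuclei was, and the authors' first revision of the barcode call gave none of those 6 the same barcode.

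Inside cluster 9 the rounds lay in different places. Of the 30 nearest neighbours of a cell in the deposited UMAP, among the 1539 barcoded cluster 9 cells of PAC1 to PAC3, PAC2 cells of the 18 clones had 84.4% from PAC2, where PAC2 makes up 15.3% of the cells searched. PAC1 member cells had 35.5% from PAC1, 61.0% from PAC3 and 3.50% from PAC2. PAC3 member cells had 28.2% from PAC1, 69.3% from PAC3 and 2.51% from PAC2. PAC1 and PAC3 member cells were thus mixed with each other and apart from PAC2. The clones themselves were little apart on average. Within a round, neighbours shared the barcode in 5.49%, 6.06% and 6.08% of cases in PAC1, PAC2 and PAC3, against 5.15%, 4.84% and 5.44% of the cells searched. Neighbours belonged to any of the 18 in 49.1% of cases, where the 18 make up 49.0%. Single clones differed: over the rounds together, bc14-39-bc30-78101 had 2.42% against 0.650% and bc14-95-bc30-78063 had 0.476% against 0.845%. Values per clone within a round were not computed.

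Member cells outside paclitaxel lay beside one or the other of these places, except in ERI4. Among all 2068 cluster 9 cells of PAC1 to PAC3, the nearest neighbours of the 10 UNT member cells in cluster 9 were from PAC2 in 96.0% of cases, those of the 6 ERI1 cells in 96.1% and those of the 17 ERI2 cells in 96.9%, where PAC2 makes up 16.2%. The 6 ERI3 cells had 71.7% of neighbours from PAC3, 27.8% from PAC1 and 0.556% from PAC2. The 15 ERI4 cells had 41.8% from PAC3, 36.2% from PAC2 and 22.0% from PAC1, where PAC3 makes up 51.7% and PAC1 32.0%. UNT, ERI1 and ERI2 cells of these clones thus each lay beside PAC2 cells, and ERI3 cells beside PAC1 and PAC3 cells. The ERI4 cells lay beside cells of PAC1, PAC2 and PAC3. Whether these member cells neighbour each other was not measured. These are 54 cells in all, most of them of bc14-33-bc30-33994 and bc14-29-bc30-33048, and cells of 1 clone share their source.

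Pseudotime, the authors' ordering of cells from an untreated root, also set PAC2 apart from PAC1 and PAC3. Most PAC2 member cells in cluster 9, 133 of 143 (93.0%, 87.5 to 96.6), stood at 1 value, 23.8808 on the authors' scale within 0.001, so this is not a spread of positions. At that value were 18 of 255 in PAC1 (7.06%, 4.24 to 10.9) and 22 of 356 in PAC3 (6.18%, 3.91 to 9.21). Of the cluster 9 cells outside the 18 clones, 81.9% (75.7 to 87.0) in PAC2, 6.63% (4.42 to 9.51) in PAC1 and 4.48% (3.09 to 6.27) in PAC3 stood there. In PAC2 the interval of the 18 clones lay above that of the other cells, and in PAC1 and PAC3 they overlapped. The 193 other cells of PAC2 included 61 called Negative and 37 called Doublet. In PAC2 cluster 9 cells of the leading 2 and of the other barcodes, the median and both quartiles were 23.8808, as in the 18. Outside paclitaxel 6 of 6 ERI1 member cells, 16 of 17 ERI2, 1 of 6 ERI3 and 2 of 15 ERI4 cells stood there. So did 4 of 10 UNT member cells and 10 of 11 UNT nuclei. Of cluster 9 cells outside the 18 clones, 1 of 3 in ERI1, 4 of 5 in ERI2 and 1 of 7 in ERI3 stood there. In ERI4 cells 0 of 21 did, with 63 of 127 UNT cells and 97 of 159 UNT nuclei. The UNT member cells, with mostly PAC2 neighbours in the UMAP, were thus only in part at this exact value, as were the other UNT cells of cluster 9. Over all 13 UNT member cells, in any cluster, median pseudotime was 23.76, with quartiles of 23.48 and 23.88. Median pseudotime of member cells in cluster 9 was 21.9, 23.9 and 22.0 in PAC1, PAC2 and PAC3.

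Depth moved with the round. In cluster 9 the member cells had median counts of 10195, 14853 and 12101 UMIs (RNA molecules) over the 3 rounds, and the leading 2 had 10176, 17541 and 12635. Over the 3 rounds together, clone medians ran from 8527 to 20346 UMIs over all 18, and from 10201 to 12748.5 over the 9 clones with 40 or more cells in cluster 9. PAC2 was the deepest round for the 18 and for the leading 2, and the part of depth in the differences between rounds was not tested. Median mitochondrial shares were 2.37%, 2.60% and 2.23% by round. By the deposited cycle scores, a cell was called G1 where both scores were at or below 0 and otherwise by the higher score. G2M calls were 40% (33.9 to 46.3), 48.3% (39.8 to 56.8) and 42.1% (36.9 to 47.5) of member cells in cluster 9. S calls were 20.4% (15.6 to 25.9), 14.7% (9.33 to 21.6) and 14.9% (11.4 to 19.0). The intervals of the rounds overlapped for G2M and for S. The leading 2 had 36.5%, 47.8% and 44.3% in G2M.

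A few member cells under paclitaxel lay outside cluster 9. They numbered 22 in PAC1, 14 in PAC2 and 20 in PAC3, with 21 of the 56 in cluster 6, 19 in cluster 2 and 4 in cluster 7. These 56 had a median of 24173 UMIs and 2 or more detected barcodes in 57.1% (43.2 to 70.3), against 11891 UMIs and 28.1% (24.9 to 31.5) for the 754 in cluster 9. By round, the median was 24780 against 10195 UMIs in PAC1, 15791 against 14853 in PAC2 and 26492.5 against 12101 in PAC3. The share with 2 or more barcodes was 40.9% against 34.9%, 50% against 28.0% and 80% (56.3 to 94.3) against 23.3% (19.0 to 28.1), with overlapping intervals in PAC1 and PAC2. The difference in detected barcodes thus stood apart in PAC3 only, and whether these cells are doublets was not tested.

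In 4 of the clones most cells had more than 1 detected barcode. Over the 3 rounds these were 93.5% of 46 cells for bc14-35-bc30-28143, 93.3% of 15 for bc14-95-bc30-78063, 86.7% of 15 for bc14-73-bc30-93926 and 81.25% of 48 for bc14-12-bc30-55481, and mostly exactly 2. The median over the 18 clones was 17.4%, and bc14-87-bc30-20460 had none of 11. Of the cells with other barcodes, the leading 2 left out, 20.1%, 20.7% and 9.79% had 2 or more in PAC1, PAC2 and PAC3. Among the member cells 35.4%, 29.9% and 26.3% did. The authors' first revision of the calls gave the same barcode in 598 of the 810 member cells (73.8%) and Doublet in the other 212, and never another barcode. It gave the same barcode in 10.9%, 6.67%, 20% and 25% of the cells of those 4 clones, in the order named. Whether these cells carry 2 insertions or are pairs of cells was not tested.

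Cell identity across libraries was checked by the droplet barcodes. The paclitaxel library shared 16 to 22 cell barcodes with each other cell library and 0 with the nuclei libraries. Every pair of a cell library and a nuclei library shared 0, so the check bears on member cells and not on member nuclei. Of the 84 member cells and nuclei outside paclitaxel, 1 had a cell barcode that also occurs in the paclitaxel library, and 0 had the same lineage barcode there. Shared droplet barcodes thus touch 1 of the member cells seen outside paclitaxel.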

How the data were processed

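Single-cell RNA was measured in 4 libraries and single-nucleus RNA in 2, for 10 conditions. Per the submitters' processing notes, Cell Ranger 3.1.0, Cell Ranger 4.0.0, Cell Ranger ARC 1.0.0 and Seurat 3.1.4 were used with build mm10. The authors' table of 51785 cells was analysed. It holds deposited counts (UMIs, genes and barcodes per cell), a deposited percent of mitochondrial UMIs, and deposited score columns for S phase, G2M phase, pseudotime and UMAP position. Cluster numbers and the latest of the deposited barcode calls were used as given. UNT nuclei spell barcodes differently in all 4935 called nuclei, and names were brought to 1 form. Barcode sequences were read from the authors' reference of 10000000 features.

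Shares are of barcoded cells, cells to which the call gives a single barcode even where several were detected. Median depth was 2089 to 20877 UMIs per condition. Python 3.11.15, pandas 2.3.3, SciPy 1.17.1 and scikit-learn 1.9.0 were used, and the scripts were tested on simulated data. The limit for a count of 0 is 3 cells of the total. Doublets were treated only through the authors' barcode calls, and hashtag doublets are not classed. With 1 library per condition no test was possible, so exact 95% intervals are set side by side.

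The barcodes and lists were chosen with earlier results of these data known. All barcodes chosen were named, as they are 20 or fewer. Sequences were printed for the 8 with the most paclitaxel cells and for pairs with a common part. Barcodes just outside were the 3 with the most cells among those with under 10 and the 3 with the highest cluster 9 share at or under 50%. Alternatives were the first revision of the call, cells with 1 detected barcode, a filter of at least 1000 genes and at most 10% mitochondrial UMIs, other denominators, a common UMI window and other cell minimums.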

Additional observations from a re-analysis of the deposited data

How the results depend on the processing

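No paired analysis was possible because every condition has 1 library. Of 49 values recomputed, 36 were classed as unchanged. A share was classed so where it stayed inside the counting interval of the main value. The number of barcodes found has no such interval and was judged by a fixed fold limit. With the first revision of the barcode call the combined share of the 18 clones was 12.7% in PAC1 and 14.1% in PAC3, and with 1 detected barcode 12.85% and 13.8%. Over all cells in place of barcoded ones it was 9.46% in PAC1, 18.5% in PAC2, 13.5% in PAC3 and 0.118% in UNT cells. PAC2 was the highest round in each of these and in the common UMI window. The cluster 9 share of member cells in PAC3 was 97.6% with the first revision, 98.6% with 1 detected barcode and 97.6% in the common UMI window, which gave 94.97% in PAC1. The rule found 11 barcodes with a minimum of 20 cells, 25 with 5, 14 with the first revision and 13 with 1 detected barcode. The last of these lost bc14-12-bc30-55481, bc14-35-bc30-28143, bc14-73-bc30-93926, bc14-95-bc30-78063 and bc14-67-bc30-7300. Chosen after seeing the data were the listed-barcode denominator and the cluster 9 share outside paclitaxel with other calls. With 1 detected barcode that share was 100% in UNT cells (2 of 2, 15.8 to 100) and ERI2 (15 of 15). It was also 100% in ERI3 (6 of 6) and ERI4 cells (8 of 8), both of 1 clone, and 85.7% in ERI1 (6 of 7). With the first revision the share ran from 57.1% in UNT cells (4 of 7) to 100%. PAC2 has 569 barcoded cells and limits clones under 0.527% there.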
